A study of Mus musculus with 614 samples.

Results

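The CD115-negative common dendritic progenitor (CDP) gate of mouse bone marrow held 58 single cells, 9.45% of all those profiled, beside 556 in the other 11 gates. Its members were taken from the sort label of each cell, with no measured value involved. The gate was defined by absence of lineage markers, CD11c, MHC class II, CD115 and IL7R, by presence of Flt3 and by intermediate c-Kit. Cells were sorted from adult C57BL/6J mice of 7 to 10 weeks, captured on microfluidic chips and turned into full-length cDNA libraries, and levels were deposited as TPM, a share of each cell's transcripts scaled by transcript length. The animals were untreated, and no label names a transgene, an animal or a pool. CDP were set against the other 10 marrow gates and in more detail against 48 common lymphoid progenitors (CLP), 65 lymphoid-primed multipotent progenitors (LMPP) and 27 plasmacytoid dendritic cells (pDC). CLP were sorted as low in c-Kit and Sca-1 and positive for CD127, CD34 and Flt3. LMPP were sorted as c-Kit+, Sca-1+ and CD34+ with intermediate CD16/32 and no CD127, and pDC as lineage-negative, B220+ and SiglecH+. The other marrow gates were 51 granulocyte-monocyte progenitors (GMP), 66 common monocyte progenitors (cMoP), 30 pre-pro-B cells and 4 gates of dendritic precursors (pre-DC) of 45 to 70 cells each, divided by SiglecH and Ly6C. GMP were sorted as high in CD16/32 without Sca-1, cMoP as CD115+ and high in Ly6C without Flt3, and pre-pro-B cells as B220+, CD43+ and IL7R+. The marrow pre-DC were sorted as CD11c+ and Flt3+ without MHC class II or B220. The last gate held 16 pre-DC from blood. It was left out of the mean of the other marrow gates but enters counts over all 12 gates.

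Dendritic cells arise in the marrow from progenitors that depend on Flt3, the receptor for Flt3 ligand. CD115, the M-CSF receptor encoded by Csf1r, marks progenitors with a strong output of conventional dendritic cells (cDC), whereas its absence has been tied to a stronger output of pDC, the main makers of type I interferon. pDC identity rests on the E protein Tcf4, and many pDC carry traces of lymphoid programmes such as the DNA polymerase Dntt, so the lymphoid, plasmacytoid and multipotent transcripts of CD115-negative progenitors are of interest.

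No label ties cells to animals, so a gate is 1 sample, no test between gates was possible and every SD is over cells. Levels are means of log2(TPM + 1) unless given as TPM, and differences are CDP minus the other gate on that scale. A difference of at least 1, a doubling, is called higher or lower. Depth is unknown, since TPM keep no read numbers. Genes detected per cell, at 1 TPM or more, were used in its place, with a median of 5208 in CDP (3606 to 7140), 3280 in CLP, 3292 in LMPP, 4398 in pDC, 5792 in GMP and 6671 in cMoP. All CDP lie in the range of library numbers that also holds 24 of the 27 pDC, while LMPP form a range of their own. Another range, that of CLP, GMP and pre-pro-B cells, is here called the CLP range. What the ranges stand for is not given in the labels. The library numbers of cMoP and of the pre-DC gates also lie outside the CDP range. Gate and range therefore cannot be told apart when CDP are compared with any gate but pDC. A Y-linked transcript was present in 58 of 58 CDP. In 3 of these Xist was present as well, and its source was not tested. Xist without a Y-linked transcript was found in 29 of 51 GMP, 20 of 30 pre-pro-B cells and 9 of 48 CLP and in no cell of the other gates. All 3 gates of the CLP range thus held cells with the female pattern, and they enter the mean of the other marrow gates.

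The transcripts of the sorted proteins followed the label in part. Flt3 ranged from 0.84 to 1105 TPM with a median of 253 TPM and was at 1 TPM or more in 57 of 58 CDP. Csf1r reached 100 TPM in 4 CDP (6.90%, exact Clopper-Pearson 95% interval 1.91 to 16.7), and Itgax, which encodes CD11c, in 3 (5.17%, 1.08 to 14.4). Il7r went against the label, with 20 CDP at 100 TPM or more (34.5%, 22.5 to 48.1) although IL7R protein was sorted out. These intervals, and the limits given for zeros, cover counting error only. Kit had a median of 0.365 TPM, and 3 CDP reached 100 TPM. The MHC class II transcripts H2-Aa and H2-Ab1 reached 100 TPM in 1 and 2 CDP.

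All 8 genes taken as markers of the gate were detected in most of its cells. Flt3, Cdk6, Ccnd2 and Satb1 had their highest gate mean in CDP. For Flt3, whose protein CDP and CLP were both sorted on, the means were 7.34 in CDP and 7.01 in CLP. Cdk6, a G1 kinase, averaged 8.93 ± 2.25 (SD, 58 cells) in CDP, and its nearest gates were cMoP at 8.37 and LMPP at 8.27, well within the spread over cells. Ccnd2, a cyclin partner of Cdk6, averaged 5.66 ± 2.60 in CDP, close to 4.88 ± 2.90 in CLP. Il12a, a subunit of interleukin 12, was the second highest in CDP at 6.63 ± 3.41, below CLP at 7.06 ± 3.90. Tcf4 was at 7.01 ± 2.58, below pDC at 9.31 ± 2.26 and above CLP at 4.81 ± 3.32. Ly86, a partner of the Toll-like receptor relative RP105, averaged 7.50 ± 3.50 in CDP, and 6 gates had higher means. Lgmn, a lysosomal protease, was present in every CDP at 75.5 to 702 TPM and averaged 7.67 ± 0.66. Its lowest means were in LMPP (0.61), GMP (1.70), pre-pro-B cells (2.61) and CLP (3.48), which are LMPP and the gates of the CLP range, so lineage and range cannot be told apart for this gene.

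**Figure D1:**
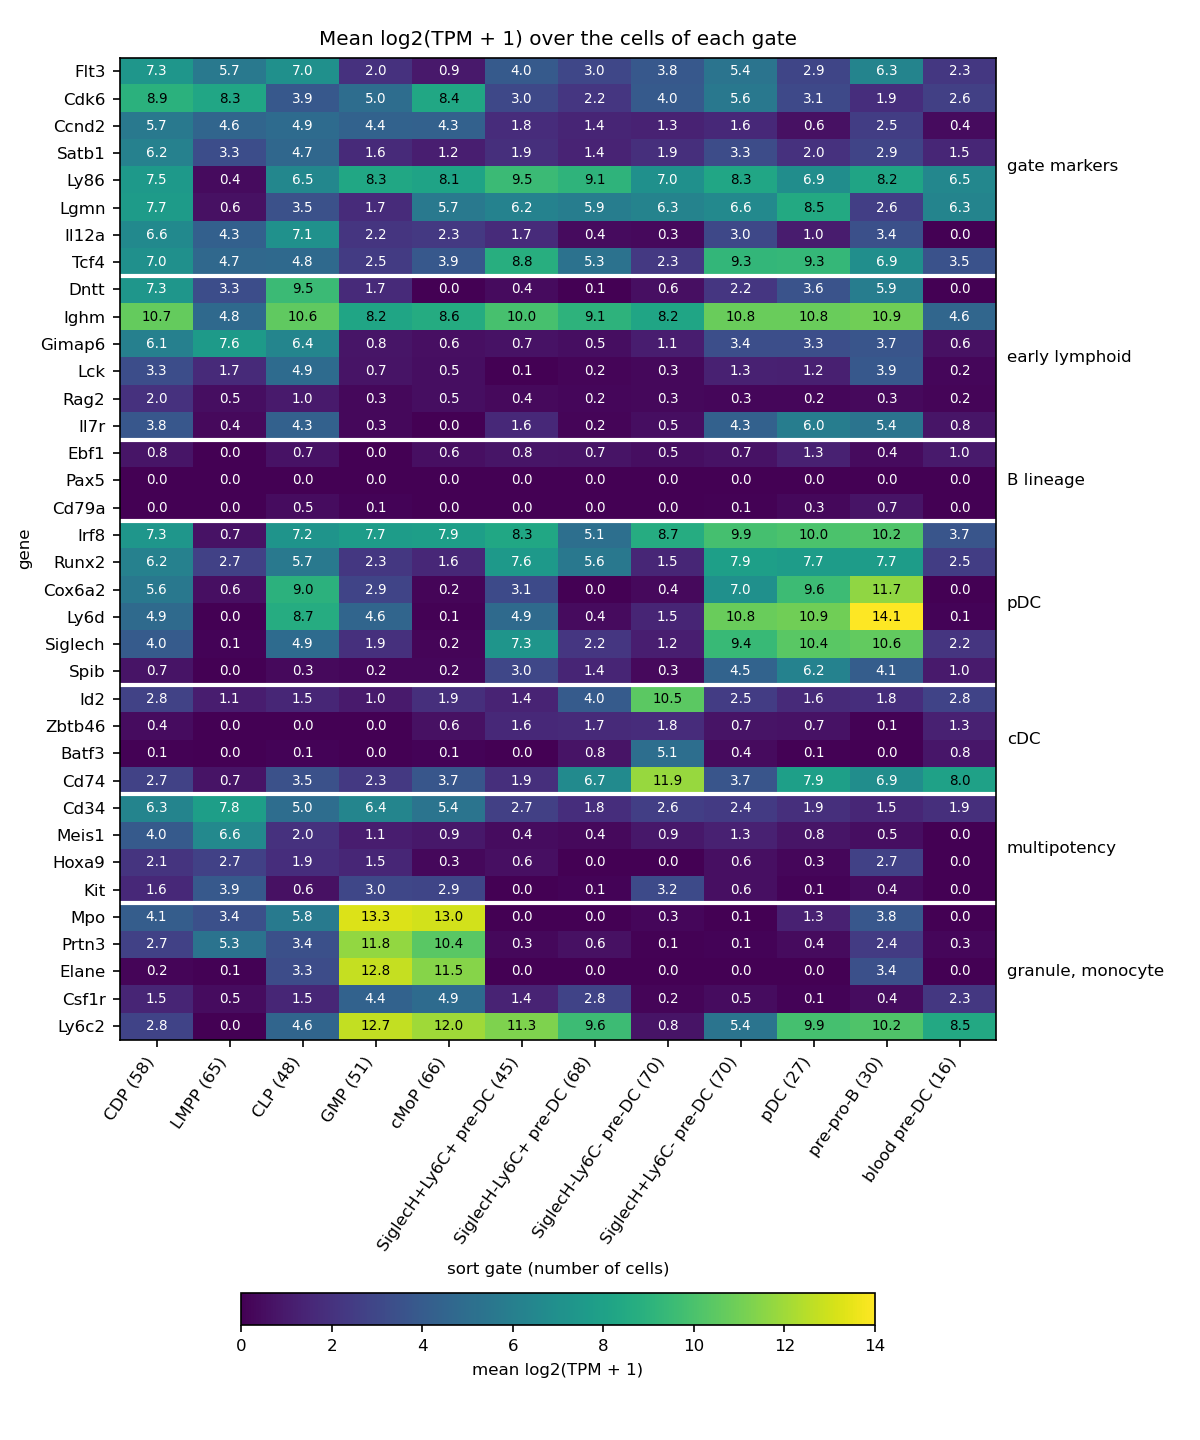
Mean log2(TPM + 1) of marker and lineage genes (down the page, grouped at the right) in each of the 12 sort gates (across, CDP leftmost, number of cells in brackets), with the value printed in each field. CDP combine Flt3, Cdk6 and Satb1 with Dntt at 7.3 and Tcf4 at 7.0, and have Spib at 0.75 and Zbtb46, Batf3, Elane and Pax5 lower still.

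The transcripts of the gate as a whole were nearest to those of SiglecH+Ly6C- pre-DC, with a Spearman correlation of 0.885 across 12660 genes. The other pre-DC gates of the marrow and cMoP followed at 0.817 to 0.826, LMPP at 0.802, pDC at 0.788, CLP at 0.668, pre-pro-B cells at 0.635 and GMP at 0.581. Genes are not independent replicates, so these values only describe the profiles. The 3 lowest marrow values belong to the CLP range. Genes whose means in all 3 gates of that range lay at least 1 above or below those of the other 8 gates, a set chosen after seeing the data, are here called range-separating. With the 12203 genes left without them, CLP stood at 0.698 and GMP at 0.612, and the order of the marrow gates was kept.

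Against the other 10 marrow gates, each with equal weight, 8.38% of 12559 genes were higher in CDP and 3.7% were lower, with a median difference of 0.09. The 10 largest differences upward included immediate-early, lymphoid and G1 genes. Background shares like these are the measure for the counts of each list below, and counts and medians cover every listed gene in the table. Egr1, an immediate-early transcription factor, ranged from 0 to 5156 TPM in CDP with a median of 706 TPM and differed by 5.49. Cd69, which holds lymphoid cells in tissues, followed with a difference of 4.63, Dntt with 4.60, Cdk6 with 4.41 and Il12a with 4.05. Dhrs3, a retinal reductase, differed by 3.89, the chromatin organiser Satb1 by 3.75, the adhesion receptor Gpr97 by 3.49, the mRNA decay factor Zfp36 by 3.44 and the survival gene Bcl2 by 3.39. Some were as high in CLP: Cd69 averaged 8.22 in CDP and 8.65 in CLP, and Zfp36 averaged 8.56 in CDP and 8.42 in CLP.

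In the other direction, the calcium-binding genes Anxa2 (-3.60) and S100a6 (-3.40) had their lowest mean of all 12 gates in CDP. Also among the 10 largest differences downward were the lysosomal thiol reductase Ifi30 (-3.22), the oxidase subunit Cybb (-3.04) and the galectin Lgals3 (-2.99). The cathepsin Ctsh (-2.94) and the elastase Elane (-2.92) followed. Not all of these were lowest in CDP. Elane averaged 0.18 in CDP and 0.095 in LMPP, and was listed at 0 in every pDC and every cell of the 4 marrow pre-DC gates. Lgals3 averaged 0.49 in CDP, 0.27 in LMPP and 0.40 in CLP, and Cybb averaged 0.95 in CDP and 0.11 in LMPP. Birc5, a mitotic survivin, and Kpna2, a nuclear import factor of cycling cells, both stood at -2.68. Hist1h2ap, a histone gene, stood at -3.44 and is the only range-separating gene of these 20.

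CDP had the highest mean of the 11 marrow gates in 7.03% of the 12559 genes, but by at least 1 in only 32 (0.255%). Zcchc11, an RNA uridylyltransferase, was 1.92 above the next gate, Bcl2 1.86, the Mediator subunit gene Med13l 1.79, the Notch coactivator gene Maml3 1.75, the chromatin remodelling ATPase gene Smarca2 1.54 and Satb1 1.49. Satb1 averaged 6.17 in CDP and 4.68 in CLP, the next gate. These genes were picked for being highest, so the values are descriptions.

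Early lymphoid genes were the list most often higher in CDP. All 18 differed upward from the mean of the other marrow gates, 12 of them by at least 1, and the median was 1.52. Il7r, whose protein was sorted out, is 1 of the 12. Dntt was at 1 TPM or more in 52 CDP and at 100 TPM or more in 35 (60.3%, 46.6 to 73.0), with a median of 818.2 TPM and a highest cell of 9400 TPM. Dntt was listed at 0 in all 66 cMoP and stayed at or below 10.4 TPM in the 51 GMP. After Dntt and Satb1, the GTPase gene Gimap6 (3.30), the costimulatory receptor Cd27 (3.19) and the T cell signalling adaptor Tespa1 (1.99) were next. The smallest differences were in Tcf3 (0.11), Lef1 (0.24) and Ccr7 (0.27). Rag2, a subunit of the V(D)J recombinase, had its highest gate mean in CDP but reached 100 TPM in only 9 cells (15.5%, 7.35 to 27.4), and its partner Rag1 in 0 of 58, which allows a share of up to 5.17% (3 counts of 58). B lineage genes did not accompany them. None of the 10 differed by 1, Pax5, Cd79a and Igll1 were listed at 0 in every CDP, and Ebf1 reached 100 TPM in 2 cells.

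Compared with CLP, 2781 of 9328 genes were higher in CDP (29.8%) and 1192 were lower (12.8%), with a median of 0.54 over all genes. Set relative to that median, 16.04% were higher and 22.1% lower, so the balance of the 2 directions rests on the scale. The early lymphoid list was near that background, with 4 of 18 higher, 3 lower and a median of 0.27. Satb1 (1.49) and Ikzf1 (1.15), a zinc finger regulator of lymphoid fate, were among those higher in CDP. Dntt (-2.20), the B cell adaptor Blnk (-1.73) and the kinase Lck (-1.57) were lower. In the granule list 5 of 11 genes were lower than in CLP and none was higher, with a median of -0.91. The list score per cell, the mean of log2(TPM + 1) over the 18 genes, averaged 4.10 ± 1.26 in CDP and 4.05 ± 0.94 in CLP, with wide overlap. It was 2.15 ± 1.01 in LMPP and 1.93 ± 0.54 in GMP.

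The single genes that differed most between CDP and CLP were largely those whose means separate the CLP range of library numbers from the other gates. By the naming rule Zfp260, Sept2, Actr2, Pim1, D7Ertd715e, Cbx3 and Map3k1 differed most upward, by 6.17 to 7.45, and Hist1h2ap, Glrx5, Ypel3, Taf10, Ppp1r14b, Bag1, Ube2s and Aes most downward, by -7.75 to -4.72. All but Cbx3 are range-separating genes. Calb1, a calcium buffer, was present in every CDP at 53.4 to 611 TPM and was listed at 0 in all CLP, LMPP and pre-pro-B cells, with a highest value of 0.3 TPM in GMP. It was also present in every cell of the other 7 gates, where means were 8.48 to 9.21. The part of the range in these differences was not tested. Outside that set, Cdk6 was higher in CDP by 5.08 and its inhibitor Cdkn1b by 3.32, while Ccnd3 (-2.58) and Cdkn1a (-2.94) were lower. The immediate-early genes Ier2 (-4.56) and Jund (-4.21) were lower in CDP.

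pDC genes were present in CDP, but unevenly. Of 21, 4 were higher and 5 lower than in the other marrow gates, with a median of -0.67. The higher ones were the transcription factors Bcl11a (1.75), Tcf4 (1.23) and Runx2 (1.12) and the mitochondrial subunit gene Cox6a2 (1.17). Against CLP alone, Cox6a2 was lower in CDP (-3.37), Tcf4 (2.20) and Bcl11a (1.96) were higher, and Runx2 differed by 0.48. The 5 genes lower than in the other marrow gates were Cybb, Cd7 (-2.14), the tetherin gene Bst2 (-2.13), Spib (-1.29) and Lair1 (-1.13). Tcf4 was at 100 TPM or more in 38 CDP with a median of 215 TPM, and Irf8, a factor of dendritic cells and monocytes, in 42 with a median of 364 TPM. Spib reached 100 TPM in 2 CDP, and the pDC protease gene Klk1 in 0 of 58.

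Against pDC, 27.1% of 9537 genes were higher in CDP and 4.77% lower, with a median of 0.44. Relative to that median 15.2% were higher and 9.98% lower. Of the pDC list 16 of 21 were lower in CDP and the median was -4.00. Bcl11a (0.09) and Plac8 (0.37), a cysteine-rich protein gene, were the 2 without a lower value in CDP. Tcf4 (-2.29) and Irf8 (-2.69) differed less than Siglech (-6.37), which pDC were sorted on, and than Ccr9 (-6.30) and Ly6d (-6.09). The pDC score averaged 3.37 ± 1.2 in CDP, 3.52 ± 1.06 in CLP, 5.78 ± 1.04 in SiglecH+Ly6C- pre-DC and 6.69 ± 1.05 in pDC. It averaged 4.65 in SiglecH+Ly6C+ pre-DC and 6.28 in pre-pro-B cells. The highest CDP, at 6.21, lay within the pDC range of 3.92 to 8.50. So did the highest CLP (6.13) and GMP (6.14), but not the highest LMPP (2.86) or cMoP (3.10). Higher in CDP than in pDC were also 8 multipotency genes, led by Cd34 (4.39) and Meis1 (3.18), and 12 of 15 S phase genes, with a median of 2.01. Outside the lists Ifitm2 (5.64), Emb (5.37), Serpinb1a (5.25) and Bex6 (5.19) were among the 8 most different genes.

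**Figure D2:**
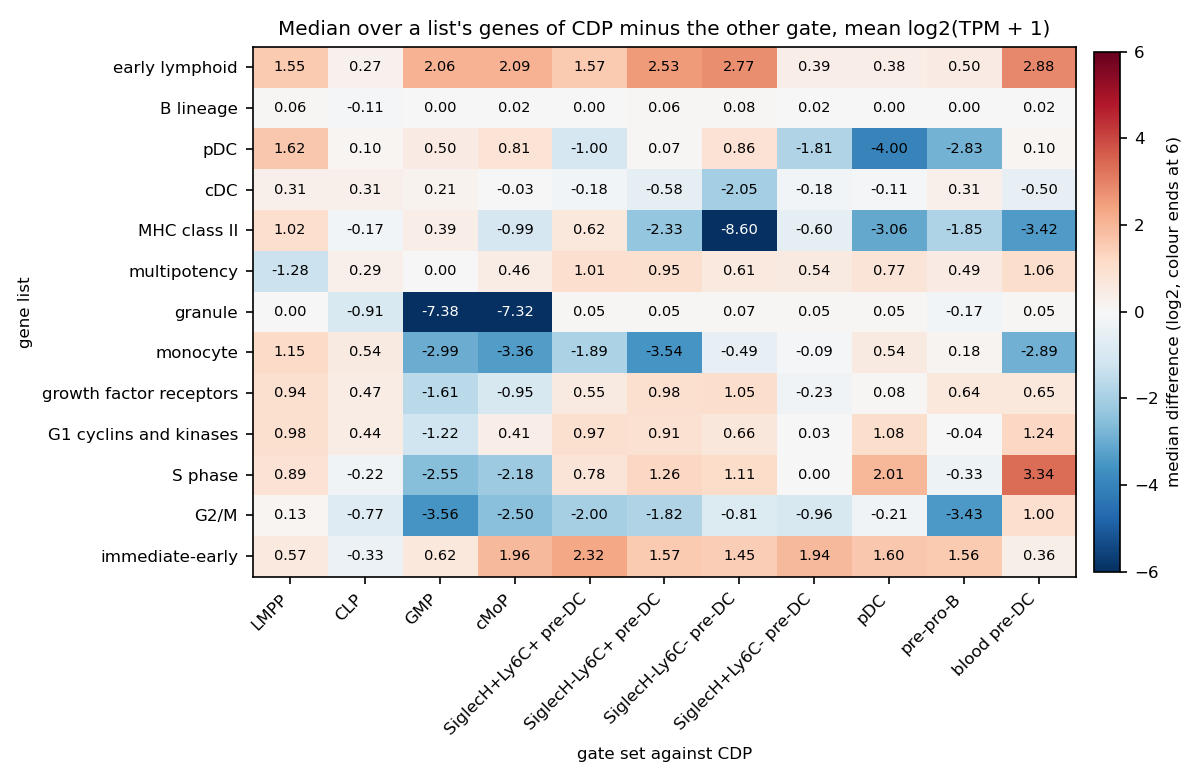
Median over the genes of each list (down the page) of the difference CDP minus the gate named below the column, in mean log2(TPM + 1), with red for higher and blue for lower in CDP and colours ending at 6 in either direction. The early lymphoid median lies between 0.27 and 2.88 in all 11 columns, the multipotency median is below 0 against LMPP alone, and the pDC median runs from -4.00 against pDC to 1.62 against LMPP. Medians over all tested genes were 0.54 against CLP, 0.59 against LMPP and 0.44 against pDC. The early lymphoid median of 0.27 against CLP is thus below that of all genes.

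Multipotency genes were mostly lower than in LMPP, and some were higher than in the other gates. Against the other marrow gates 5 of 16 were higher and none lower, with a median of 0.24. They were Cd34 (2.55), which some of those gates were sorted on, the homeobox genes Meis1 (2.47) and Hoxa9 (1.07), the RNA-binding Msi2 (1.43) and the Ets factor Erg (1.08). Meis1 was at 100 TPM or more in 19 CDP (32.8%, 21 to 46.3), 41 of 65 LMPP, 7 of 48 CLP and 1 of 27 pDC. Its median was 10.3 TPM in CDP and 298.4 TPM in LMPP.

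Compared with LMPP, 28.1% of 9081 genes were higher in CDP and 3.24% were lower, with a median of 0.59. Relative to that median 10.6% were higher and 9.75% lower. LMPP had the lower number of genes per cell, and the part of this in the counts was not tested. Of the multipotency list 9 of 16 were lower in CDP and none was higher, with a median of -1.28. The 9 include Kit (-2.28) and Cd34 (-1.54), whose proteins LMPP were sorted on. Hlf (-3.57), a stem cell transcription factor, Lmo2 (-2.76) and Meis1 (-2.63) were lowest. Of the pDC list 14 of 21 were higher and none lower, with a median of 1.62, led by Irf8 (6.64), Cox6a2 (5.04) and Ly6d (4.86). Irf8 was at 100 TPM or more in 42 of 58 CDP and 4 of 65 LMPP. Of the early lymphoid list 11 were higher and 1, Gimap6 (-1.54), was lower, with a median of 1.55.

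Irf8 was also among the 8 genes highest in CDP against LMPP. Besides Irf8 and Calb1, Ly86 (7.09), Lgmn (7.06), the lectin Clec12a (6.06) and the signalling adaptors Tyrobp (5.43) and Fcer1g (5.17) were among them. Tyrobp and Fcer1g were nonetheless low for the study, with 10 gates above CDP for each. In the other direction stood the carbonic anhydrase Car2 (-7.78), Ifitm1 (-6.45), Ifitm3 (-4.56), Ctla2b (-4.43), Eltd1 (-3.96), Ifitm2 (-3.95) and Ctla2a (-3.85).

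**Figure D3:**
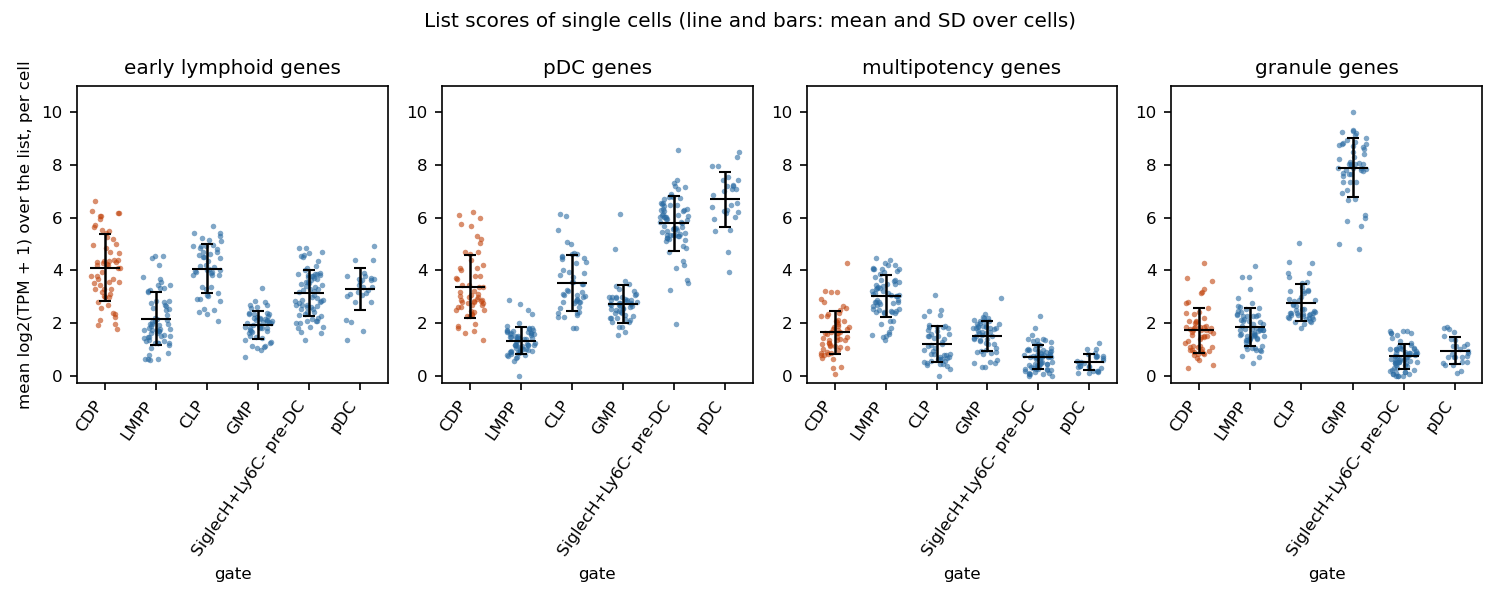
Score of each cell (mean log2(TPM + 1) over a list's genes, vertical axis) for 4 lists in CDP (orange, leftmost) and 5 other gates (blue), with the mean and SD over cells in black. The early lymphoid scores of CDP and CLP overlap, at 4.10 and 4.05 on average, and the multipotency scores of CDP average 1.64, against 3.01 in LMPP and 0.52 in pDC.

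The cDC score averaged 1.48 ± 0.49 in CDP, between 0.87 and 1.44 in the other marrow gates outside the pre-DC and between 1.62 and 4 in the 4 marrow pre-DC gates. Of 16 cDC genes only Flt3, whose protein CDP were sorted on, was higher than in the other marrow gates, while Ccr2, Clec9a and Naaa were lower. Zbtb46 and Batf3, transcription factors of cDC, reached 100 TPM in 0 of 58 CDP. Id2, an inhibitor of E proteins such as Tcf4, was listed at 0 to 7350 TPM with a median of 0 TPM and reached 100 TPM in 14 CDP (24.1%, 13.9 to 37.2). In the MHC class II list 5 of 7 genes stood lower, and the list median was -1.66, although the protein was also sorted out in the pre-DC gates. H2-DMa, a peptide loading subunit gene, was not among the 5, with a median of 242.8 TPM and 39 CDP at 100 TPM or more. By gate, the MHC class II score of CDP (2.55) was close to that of CLP (2.69), SiglecH+Ly6C+ pre-DC (2.69) and GMP (2.77) and above LMPP (1.44). It was 3.11 to 9.41 in the other marrow gates, highest in SiglecH-Ly6C- pre-DC.

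Of the myeloid lists, granule genes had 5 of 11 lower and 1, Srgn (2.25), a proteoglycan core gene, higher. Monocyte genes had 6 of 12 lower, led by Ly6c2 (-4.84), which encodes a protein used to sort several of the gates. Mpo, the myeloperoxidase of primary granules, averaged 4.12 ± 4.16 in CDP. Mean Mpo was higher in CLP, at 5.76, and far higher in GMP (13.28 ± 1.40) and cMoP (13.04 ± 1.13). It was nevertheless at 100 TPM or more in 20 CDP (34.5%, 22.5 to 48.1), as in 20 of 65 LMPP, while 0 of 27 pDC and 0 of 30 pre-pro-B cells reached that level. In pDC, most of which share the CDP library numbers, Mpo was at 1 TPM or more in 17 cells with a highest value of 6.79 TPM. Counts at 100 TPM are therefore used for cells below, a threshold chosen with these values known. Prtn3, another granule protease, reached 100 TPM in 13 CDP, but Elane in 1.

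The cell cycle lists gave a divided picture. Cdk6, Ccnd2 (2.92) and Cdkn1b (1.40) were higher than in the other marrow gates. Of 15 S phase genes 1 was higher and 2 were lower, with a median of 0.18. Of 17 G2/M genes 15 stood lower, Birc5 most of all, and the list median was -1.43. The medians were -3.56 against GMP, -3.43 against pre-pro-B cells and -2.50 against cMoP, but -0.21 against pDC and 0.13 against LMPP, where 2 genes were higher and none lower. Single CDP ranged widely, with an S phase score of 1.02 to 7.80 and a G2/M score of 0.01 to 8.13. Both scores had a Spearman correlation with genes per cell, of 0.56 and 0.50.

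Immediate-early genes respond within minutes to stimulation or handling. Against the other marrow gates 7 of 13 were higher and none lower, with a median of 1.01. Fos was at 4.99 to 6924 TPM, with a median of 1218 TPM, and was present in every CDP. Against CLP the list had 1 gene higher (Egr1) and 5 lower, and against pDC 8 higher and none lower. The part of handling in these values was not tested.

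Lineage transcripts varied from cell to cell within the gate. Among genes at 1 TPM or more in 20% to 80% of CDP, those with the largest SD were Snora31, Wfdc17, Ccl3, Tex30, Mpo, Vmp1, Mcm3, Inafm2, Sdc4 and Slpi, at 4.04 to 4.62. Ly6d, a surface protein gene of lymphoid progenitors, spanned 0 to 14503 TPM with 17 CDP at 100 TPM or more (29.3%, 18.1 to 42.7). Mean Ly6d was 4.86 in CDP and 8.69 in CLP. Siglech spanned 0 to 2398 TPM, with 48 CDP at 1 TPM or more but 22 at 10 TPM and 18 at 100 TPM (31%, 19.5 to 44.5). In the 27 pDC Siglech had a median of 1912 TPM and was at 100 TPM or more in 26. It also reached 1 TPM in 37 of 51 GMP but 100 TPM in 2, and the source of such low values was not tested.

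**Figure D4:**
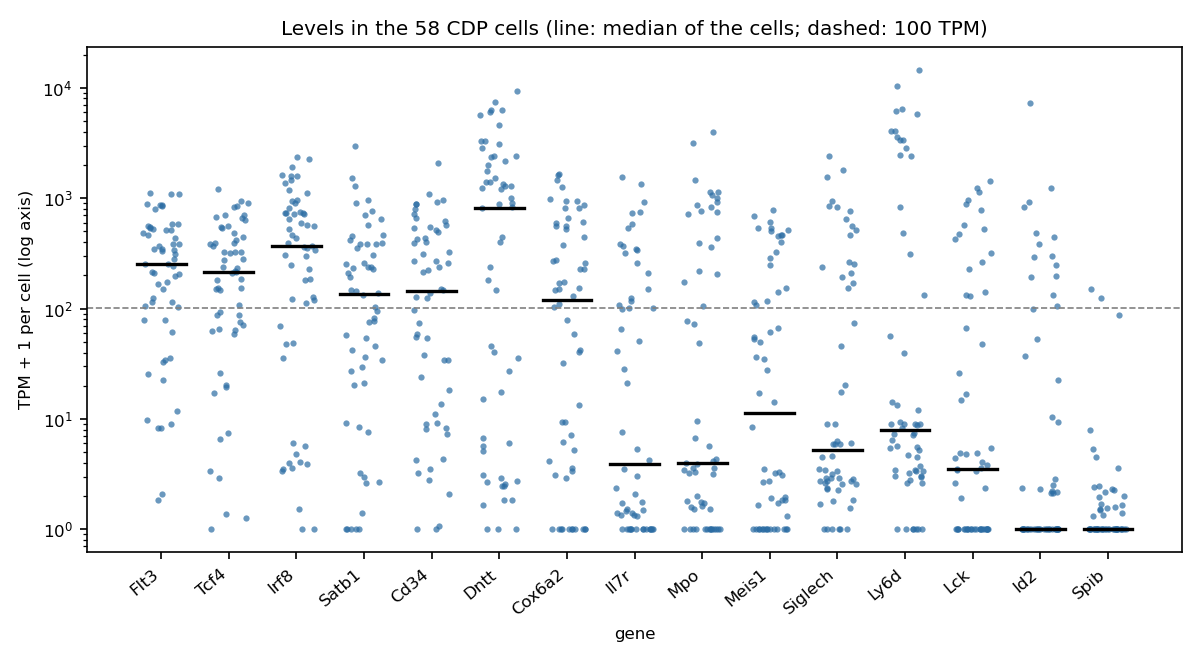
TPM + 1 (vertical, log axis) of 15 genes (across) in each of the 58 CDP, with 1 point per cell, the median as a black line and 100 TPM as a dashed line. Flt3, Tcf4 and Irf8 are at or above 100 TPM in 43, 38 and 42 cells, whereas Siglech, Ly6d and Mpo are in 18, 17 and 20 cells.

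Siglech, on chromosome 7 at 55768178 to 55778925 of GRCm38, and Mpo, on chromosome 11 at 87793581 to 87804413, did not occur together at a high level. No CDP had both at 100 TPM or more, which allows a share of up to 5.17% (3 counts of 58), where the product of the single shares was 10.7%, or 6.21 cells. At 10 TPM 1 CDP had both, against a product of 8.72 cells. Ly6d and Mpo were together in 2 CDP at 100 TPM, with a product of 5.86.

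Dntt was found beside either of them. Of the 35 CDP with Dntt at 100 TPM or more, 9 also had Siglech and 13 had Mpo, close to the products of 10.9 and 12.1 cells, and 13 had neither. A further 9 CDP had Siglech alone, 7 had Mpo alone and 7 had none of the 3. Cd34 was at that level in 32 CDP, 17 of those with Mpo (product 11), 5 with Siglech (9.93) and 27 with Dntt (19.3). All 17 CDP with Ly6d had Irf8 (product 12.3), and 16 had Tcf4 (11.1). These counts describe 58 cells of 1 sample, and which animals they came from is not given in the labels.

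**Figure D5:**
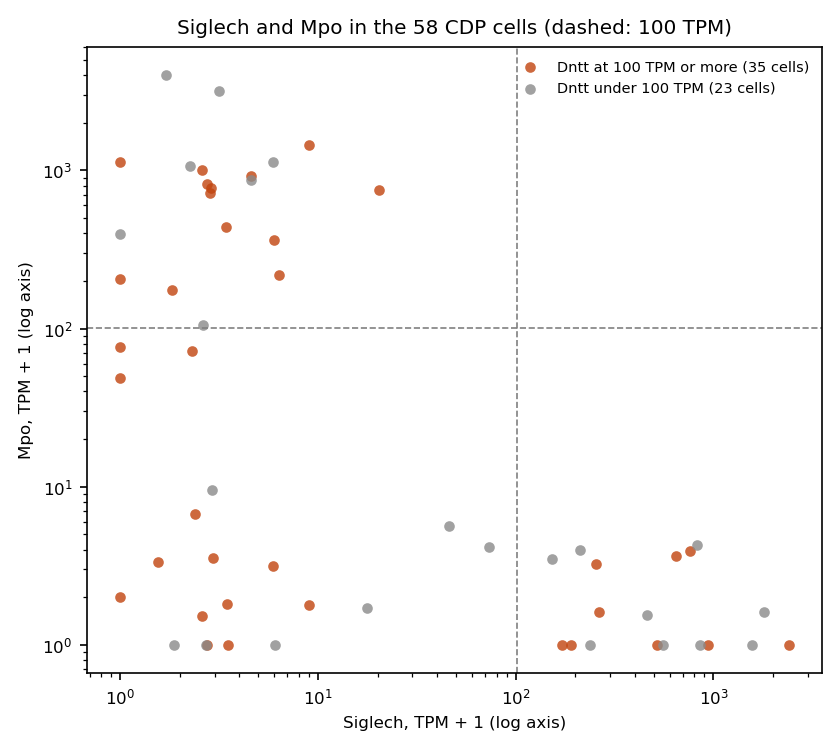
TPM + 1 of Siglech (horizontal) and Mpo (vertical) in each of the 58 CDP, both axes logarithmic, with 100 TPM as dashed lines and colour for Dntt at or above 100 TPM (35 cells) or below it (23 cells). The upper right field is empty, and cells with Dntt lie in each of the other 3.

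List scores were also compared over the 58 cells. The pDC score had a Spearman correlation of -0.43 with the granule score and -0.35 with the multipotency score, or -0.54 and -0.34 given the number of genes per cell. It was 0.45 with the monocyte score, 0.46 with the S phase score and 0.48 with the G2/M score, or 0.40, 0.33 and 0.36 given that number. The early lymphoid score had 0.35 with the multipotency score, -0.38 with the monocyte score and -0.04 with the pDC score. The granule and multipotency scores had 0.35. The points are cells of 1 gate that share a range of library numbers and differ in detected genes, so these values are descriptions.

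Against SiglecH+Ly6C- pre-DC, the gate nearest to CDP over all genes, 8.13% of 9728 genes were higher in CDP and 5.61% were lower, with a median of 0.0089. None of the 21 pDC genes was higher in CDP and 14 were lower, with a median of -1.81. Of the 16 multipotency genes 6 were higher and none lower, among them Cd34, Meis1, Lmo2 and Hoxa9, with a median of 0.54. Of the 11 granule genes 4 were higher in CDP, namely Mpo, Srgn, Prtn3 and Ctsg. Of the 13 immediate-early genes 10 were higher and none lower, with a median of 1.94. Of the 18 early lymphoid genes 6 were higher, led by Dntt, and Blnk was lower.

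Markers of other cell types differed by list. All 7 mature neutrophil genes were at 0 in every CDP, among them S100a8, S100a9 and Ltf. The summed level of the 6 macrophage genes ranged from 0 to 8.28 TPM, with C1qa, C1qb and C1qc at 0. Erythroid, platelet and basophil or mast cell genes each reached 100 TPM in 1 CDP. In the list for T and NK cells 21 CDP had a gene at that level, 20 of them Nkg7, while Cd3g and Trac were at 0. In the plasma cell list 15 CDP had a gene at that level, Sdc1 in 10 and Xbp1 in 7.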

How the data were processed

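Single-cell full-length cDNA libraries of 12 sort gates were deposited as 1 table of TPM. The authors' tool was RSEM (version 1.2.19) and their build GRCm38, per the submitters' processing notes. Neither aligner nor annotation is stated there. TPM keep no read numbers, so depth is unknown and no count model applies. No 2 cells had identical values, and no doublet caller was run. Gates were taken from the sort labels.

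Values were transformed to log2(TPM + 1) (pseudocount 1) and averaged over the cells of a gate. A gene entered a comparison if 20% of cells in any of its gates had 1 TPM or more. Each gate is 1 sample, so no p-value was computed. Named genes were the 10 largest differences per direction against the other marrow gates and 8 against CLP, LMPP and pDC, in 50% of the cells of the higher gate, without mitochondrial, ribosomal protein, sex-linked, predicted, clone-named, pseudogene, receptor segment and sorted-marker genes. Added to these were the gate's markers, the sorted markers and the 3 highest and lowest members of each list. Other genes named from the lists, with their cell counts, were chosen after their values were seen. The 20 lists held 226 genes, of which 225 were in the table, 2 under older symbols. Gate, lists and the 100 TPM threshold were chosen with earlier results of these data known. Some genes that the rule names are not reported here. Gene positions are from GENCODE M21. Computations used pandas 2.3.3 and NumPy 2.4.6 under Python 3.11.15, with intervals from SciPy 1.17.1 and plots from Matplotlib 3.10.9, and were tested on simulated data.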

Additional observations from a re-analysis of the deposited data

How the results depend on the processing

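No paired analysis was possible because replicate numbers only name cells and no test was made. Each gate is 1 sample, and depth is unknown. Gate and library-number range cannot be told apart when CDP are compared with any gate but pDC. Shares of genes past a difference of 1 depended most on the pseudocount. With 0.1 in place of 1, 20.9% of genes were higher and 7.72% lower in CDP than in the other marrow gates, and with 10, 2.22% and 1.16%. Without the gates of the CLP range 2.07% were lower. Against CLP, 51.8% were higher with 0.1, and 8.17% higher and 7.61% lower with 10. Relative to the median of all genes, 16.04% were higher and 22.1% lower. The granule median against CLP was -1.87 with 0.1, against -0.91 with 1. Against LMPP, 54.9% were higher and 5.49% lower with 0.1, 5.99% and 1.5% with 10, and 10.6% and 9.75% relative to the median. Against pDC, 42.6% and 8.16% were higher and lower with 0.1, 10.03% and 2.08% with 10, and 15.2% and 9.98% relative to the median. With a filter at 50% of cells fewer genes were lower than in pDC, though they made up 7.24% of the smaller set. H2-Aa against LMPP stood at -0.092 with a pseudocount of 10, against 1.02 with 1. Leaving out that range and centring on the median were chosen after seeing the data. The cause of these shifts was not tested. Of the recomputed values for comparisons and main lists, 24 (9.2%) moved past the tolerance set (1.5 times for a number of genes, 1 SD over cells for a median). Of those for single genes, other lists and shares of cells, 7.92% moved past it. This pooled value hides the shares of cells, most of which moved when the level for detection was changed from 1 TPM. With detection at 10 TPM, 9 moved and 4 did not. With detection at 100 TPM, 12 moved and 1 did not. The values of 9.2% and 7.92% are both lowered by results that some settings could not move. A different filter on low values cannot change a gene's difference or a list median, since these also cover genes that fail it. Leaving out range-separating genes cannot change the difference of a gene that is kept. The lack of movement under these settings is therefore no sign of stability.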

Other observations

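Sdc1, a syndecan of plasma cells, had its highest gate mean in CDP and reached 100 TPM in 10 of 58 cells (17.2%, exact Clopper-Pearson 95% interval 8.59 to 29.4), a gene named after its values were seen. Xbp1, a secretory regulator, reached 100 TPM in 7 (12.1%, 4.99 to 23.3), and 9 gates had a higher mean. Among growth factor receptors Csf3r reached 100 TPM in 7 CDP.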
